A study of Xenopus laevis with 79 samples.

Results

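The 29 loci described here carry names of claudins, occludin, MARVEL-domain proteins, zonula occludens scaffolds, and a junctional adhesion molecule, the proteins that build and anchor tight junctions. They were taken from the 42 locus names in the count table of this Xenopus laevis ectoderm series that match a fixed pattern of such names (those of numbered claudins, the tjp scaffolds, ocln, marveld1 to marveld3, cgn, f11r, jam2, and jam3) and passed a minimum of more than 10 counts in at least 2 of the 79 libraries. That minimum was passed by 25,172 of the 45,099 loci in the table. The rule used names and a depth minimum alone, but it was set with earlier results of these data known. Where a locus passed the minimum of a fit only through the group where it was high, its call is given below as a description. Of the 13 matching loci that missed it, 7 had 0 counts in all libraries, and no cgn, f11r, or jam2 locus was among the 42. Nearest to the minimum, cldn16.s (3 libraries over it, largest count 21) and marveld1.l (6 libraries, largest count 19) were just inside and marveld1.s (1 library, largest count 13) just outside. The 29 loci are 17 claudins, 6 of occludin and the marveld family, 4 zonula occludens scaffolds, and 2 copies of jam3, and they include 12 pairs of homeologs. Homeologs are the L and S copies that the allotetraploid X. laevis genome keeps of many genes.

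Tight junctions seal the gap between neighboring epithelial cells near their apical face. Claudins are tetraspan proteins whose extracellular loops form the barrier or its ion pores, occludin and the other MARVEL-domain proteins stabilize the strands and the corners where several cells meet, and the ZO scaffolds encoded by tjp genes tie the strands to actin. In amphibian embryos the outer ectoderm layer is a sealed epithelium from cleavage on, and parts of the ectoderm later fold inward as the neural tube or lose epithelial character as neural crest.

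RNA was sequenced from 63 dissected ectoderm fragments and 16 whole-embryo libraries of wild-type X. laevis. Each dissected library came from 1 fragment of 1 embryo, and the study checked fragments beforehand by qPCR of region markers. At St. 12.5 the fragments were anterior and posterior neural plate (NPa and NPp, 3 libraries each), anterior, posterior, and lateral neural border (NBa with 4, NBp and NBl with 3 each), a joined fragment of preplacodal ectoderm and anterior border (ANB/PPE, 3), and nonneural ectoderm (NNE, 3). At St. 14 they were NPa (3), NPp (4), NBa (6), NBp (5), the St. 14 counterpart of ANB/PPE, taken with the anterior neural fold (ANF/PPE, 5), anterior and posterior nonneural ectoderm (NNEa and NNEp, 3 each), plus undivided border (NB, 4) and plate (NP, 2), and at St. 17 neural crest (NC, 4) and placode (Pc, 2). Whole embryos were taken in pairs of libraries at 8 stage labels from St. 11-11.5 to 18-19. Below, "plate" is the average of NPa and NPp, "border" that of NBa and NBp, and NNE at St. 14 that of NNEa and NNEp, each on the log2 scale.

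Libraries held 8898490 to 18468000 counts (median 13134900), and levels are in CPM, counts per 1000000 counts of a library after its size was scaled by TMM, the trimmed mean of M values, so that 1 CPM stood for 8.38 to 17.3 counts. The epidermis list matched the labels: 4 of its 5 names were found (8 loci) and summed to 6289 to 6990.2 CPM in NNE against 8.79 to 78.9 in the plate libraries at St. 12.5. Some lists did not separate the labels. Placode markers were at 156 to 323 CPM in NNEa and 100.3 to 177 CPM in ANF/PPE at St. 14. At St. 12.5 they were at 120 to 270 CPM in NNE and 139 to 195 CPM in ANB/PPE. The neural border and crest list was at 21.6 to 28.4 CPM in NBp and 26.1 to 63.2 CPM in NPp at St. 12.5. Muscle and somite markers of the paraxial mesoderm (4 of 5 names, 8 loci) were over 100 CPM in 4 dissected libraries, at 234 CPM in NPp replicate 2 and 138 CPM in NBp replicate 3 at St. 12.5 and at 232 and 2284 CPM in the 2 undivided St. 14 plate libraries. In the other St. 12.5 plate and border libraries, NBl left aside, they were at or under 35.7 CPM, and results of the plate and border are given with and without the libraries over 100 CPM where a call changes. At St. 14 the neural border and crest list reached 557 to 1509 CPM in NPa and 508 to 658 CPM in NNEa, against 1288 to 2449 CPM in NBa. In bulk tissue of this kind, fewer cells of a type and less RNA per cell cannot be told apart. Differences are log2 differences with their standard errors (SE), and calls are loci at a false discovery rate (FDR) under 0.05 in edgeR's quasi-likelihood test with Benjamini-Hochberg adjustment over all loci tested, written as edgeR FDR. Transcript lengths were not used here, so levels are compared between regions and stages for the same locus and never between loci.

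Which of the 7 regions had the highest mean differed among the loci at each stage. By group mean, 12 of the 29 were highest in NNE at St. 12.5 and 13 in NNEa or NNEp at St. 14, while 12 and 11 were highest in a neural plate region. Another 3 and 1 were highest in NBa, NBp, or NBl, and 2 and 4 in ANB/PPE or ANF/PPE. The same shares were not computed over all loci, so nothing particular to these loci is read from the counts. The heat map of levels by region shows cldn1, cldn4, cldn23, and marveld3.1 on the nonneural side and cldn5, jam3, and tjp1.s on the neural side. CPM of the plain library total gave the same highest region for 28 of 29 loci at St. 12.5 and 27 of 29 at St. 14.

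**Figure D1:**
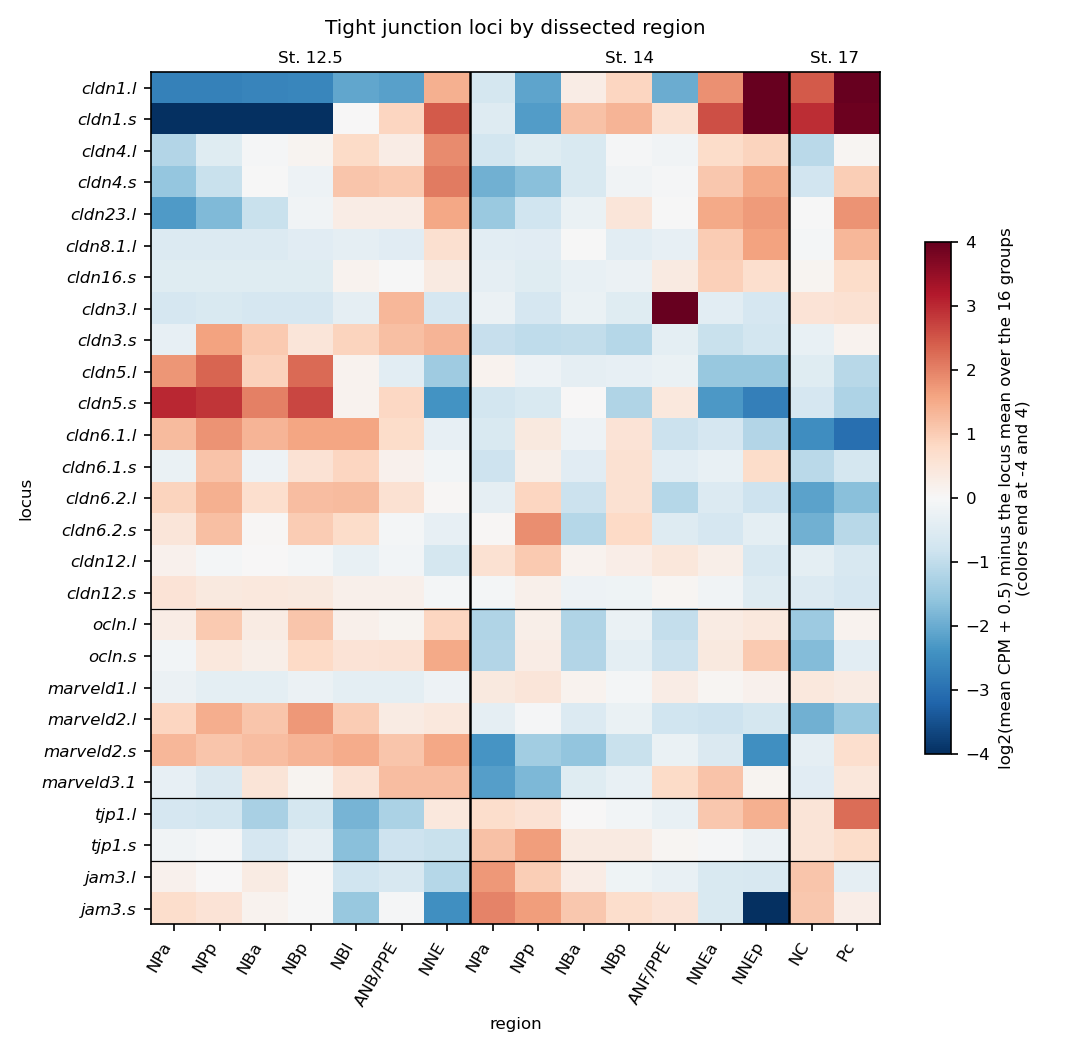
Level of 27 of the 29 loci (rows, by role) in 16 dissected groups (columns, by stage and region, without the undivided St. 14 fragments), as log2 of the group's mean CPM + 0.5 minus the mean of that locus over the groups. Color gives the difference from the locus mean, so rows compare regions within a locus. NNE columns are high for cldn1, cldn4, and cldn23.l, and plate columns for cldn5.s at St. 12.5 and jam3.s at St. 14.

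At St. 12.5, the transition from gastrula to neurula, nonneural ectoderm held more claudin-1, claudin-4, and claudin-23 RNA than neural plate and less claudin-5 and jam3 RNA. Claudin-4 is a barrier-forming claudin of many epithelia. cldn4.l was at 2617, 2043, and 1836 CPM in the 3 NNE libraries, 169, 266, and 330.5 CPM in NPa, and 356, 303, and 583 CPM in NPp. Its S copy was at 1767, 1131, and 1359 CPM in NNE, 71.6, 147, and 129.8 CPM in NPa, and 136, 164, and 246 CPM in NPp. Every NNE library was above every plate library for both copies, with a log2 difference 2.88 ± 0.23 (SE), edgeR FDR 5.39e-09 for cldn4.l and 3.44 ± 0.29 (edgeR FDR 9.85e-09) for cldn4.s. Claudin-1, which the mouse epidermis needs to hold back water, was close to 0 in the plate at this stage. cldn1.s was at 74.6, 45.97, and 65.8 CPM in NNE and at 0 to 0.273 CPM in the plate libraries (5 counts in all), with a log2 difference 10.80 ± 0.63 (SE), edgeR FDR 7.18e-10. cldn1.l had 0 counts in all 6 plate libraries and 1.87, 10.5, and 12.5 CPM in NNE, at least 202-fold higher when 3 counts over the plate libraries are taken as the floor and both groups' summed counts are set against their TMM-scaled sizes (edgeR FDR 2.98e-06); "at least" has this sense throughout. cldn1.l exceeded the count minimum of the St. 12.5 fit in the NNE libraries alone, so its calls there are given as a description. The less studied cldn23.l was at 22.8, 11.4, and 20.02 CPM in NNE and 0.206 to 1.81 CPM in the plate (4.20 ± 0.50, edgeR FDR 1.01e-06).

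In all, 9 of the 26 loci tested were higher in NNE and 9 lower, against a background of 39.8% of all 20,956 loci called in either direction, 23.3% higher and 16.4% lower. The median difference of the 26 was -0.39 on the log2 scale, beside -0.07 over all loci tested. Among those lower in NNE was claudin-5, known in mammals as the claudin of the blood-brain barrier. cldn5.s was at 49.01, 21.9, and 7.63 CPM in NPa, 39.7, 24.8, and 6.28 CPM in NPp, and 0.104, 0.181, and 0.0991 CPM in NNE (-7.34 ± 1.52, edgeR FDR 0.000578). The plate values differed widely among embryos, and all were above the NNE values. cldn5.l followed at lower counts, with 1.39 to 12.9 CPM in the plate and 1 count in all NNE libraries (ratio 149, 95% exact counting interval 26.6 to 5914; edgeR FDR 0.00508). Claudin-6, a claudin of embryonic epithelia, was split: cldn6.1.l was at 51.9, 29.95, and 26.6 CPM in NNE and 75.3 to 291 CPM in the plate (-1.71 ± 0.36, edgeR FDR 0.000638), whereas cldn6.1.s did not pass the test (-0.37 ± 0.67, edgeR FDR 0.7). The cldn6.1 and cldn6.2 genes are numbered copies that lie next to each other in the RefSeq annotation, so counting could split their reads, and their values are uncertain to that extent.

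**Figure D2:**
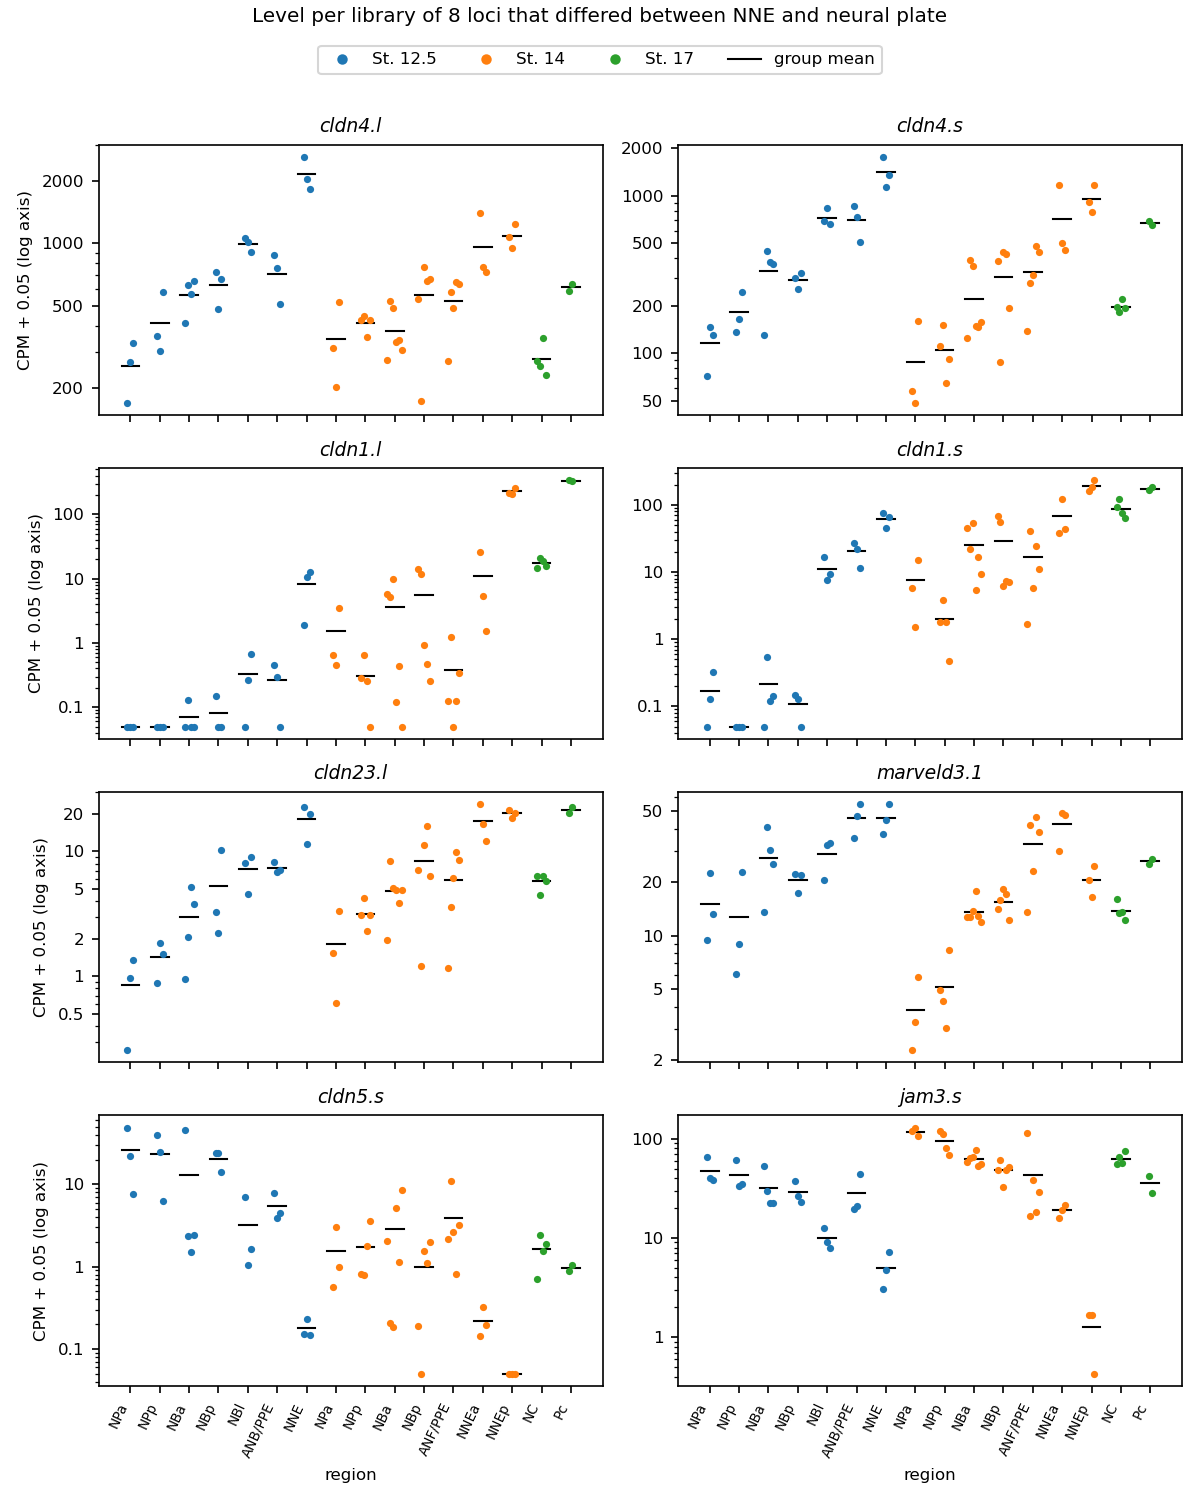
CPM + 0.05 on a log axis for 8 loci in every dissected library, grouped by stage and region; each point is 1 library. At St. 12.5 the 3 NNE points lie above all plate points for cldn4.l, cldn4.s, cldn1.s, cldn1.l, cldn23.l, and marveld3.1 and below them for cldn5.s and jam3.s.

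Occludin, MARVEL, and adhesion loci moved in both directions across the same contrast. Of the occludin copies, S was called and L was not, with ocln.s at 599, 302, and 348 CPM in NNE and 118 to 201 CPM in the plate (1.52 ± 0.20, edgeR FDR 3.03e-06) and ocln.l at 293, 305, and 334 and 180.2 to 390.5 CPM (0.32 ± 0.18, edgeR FDR 0.158). marveld3.1 was at 37.5, 44.8, and 54.7 CPM in NNE and 6.09 to 22.8 CPM in the plate (1.88 ± 0.34, edgeR FDR 0.000158). jam3.s, an immunoglobulin-family adhesion receptor of cell contacts, was lower in every NNE library (3.02, 4.71, and 7.14 CPM) than in any plate library (33.01 to 64.8 CPM; -3.04 ± 0.42, edgeR FDR 6.81e-06). Its rare L copy had 0 counts in NNE and 0.209 to 1.29 CPM in the plate, at least 7.15-fold higher there (edgeR FDR 0.00363).

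Of the 18 calls, 14 held without any single library. The others were cldn12.l (edgeR FDR up to 0.157, without NNE replicate 2), cldn6.2.l (0.0599, without NNE replicate 2 or 3), tjp1.l (0.29, without NNE replicate 2 or 3 or NPp replicate 3), and tricellulin, marveld2.l (0.203, without NNE replicate 2 or 3, NPp replicate 1, or NPa replicate 1 or 2). With the embryo as a replicate block, cldn3.s, cldn6.2.s, and marveld2.s were called as well (edgeR FDR 0.0263, 0.00569, and 0.0298).

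In the border, the group means of cldn4.l lay between those of plate and NNE. The locus was at 410.1, 626, 568, and 655 CPM in NBa, 726, 483, and 669 CPM in NBp, 1056, 1019, and 912 CPM in the lateral NBl, and 878, 756, and 509 CPM in ANB/PPE. All of these were below the 3 NNE values, and the 3 NBl values were above every NBa, NBp, and plate value. cldn1.s was at or under 0.484 CPM in NBa and NBp but at 16.4, 7.64, and 9.14 CPM in NBl and 27.3, 22.3, and 11.6 CPM in ANB/PPE. Against the plate, the border was higher for 3 of 26 loci and lower for 0, where 4.39% of all loci were called (3.36% higher and 1.04% lower): cldn23.l (1.84 ± 0.44, edgeR FDR 0.0146), cldn4.s (1.08 ± 0.24, edgeR FDR 0.00811), and cldn4.l (0.85 ± 0.19, edgeR FDR 0.00883), each with overlapping libraries. All 3 calls ended without NPp replicate 2 and NBp replicate 3, the libraries with paraxial mesoderm markers, at 1.51 (edgeR FDR 0.0795), 1.03 (edgeR FDR 0.0635), and 0.76 (edgeR FDR 0.0699), and cldn23.l also ended without NBp replicate 3 alone (edgeR FDR 0.0816). Axial mesoderm markers (2 of 4 names, 4 loci) were at 188 to 668 CPM in NBp, 26.8 to 318 CPM in NPp, 1.004 to 2.82 CPM in NBa, and 0.541 to 5.56 CPM in NPa, so leaving out those libraries does not remove them. The part of either mesoderm list in the values was not tested.

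NNE against the border gave 9 loci higher and 9 lower, where 36.7% of all loci were called (22.5% higher and 14.2% lower). cldn1.s (9.32 ± 0.54, edgeR FDR 3.15e-09), cldn1.l (260 against 2 counts, ratio 354, 95% exact counting interval 96.9 to 2936; edgeR FDR 4.26e-06), cldn4.s (2.36 ± 0.27, edgeR FDR 1.04e-06), cldn23.l (2.35 ± 0.45, edgeR FDR 0.000315), and cldn4.l (2.03 ± 0.22, edgeR FDR 4.47e-07) led on the NNE side, and cldn5.s (-6.71 ± 1.502, edgeR FDR 0.00132), cldn5.l (1 count in NNE, ratio 112, 95% exact counting interval 19.97 to 4442; edgeR FDR 0.0102), jam3.s (-2.45 ± 0.41, edgeR FDR 6.62e-05), and cldn6.1.l (-1.64 ± 0.35, edgeR FDR 0.000925) on the border side. jam3.l was at least 8.21-fold higher in the border, since NNE had 0 counts (edgeR FDR 0.00327). 14 of the 18 calls held without any single library; cldn12.l and cldn6.2.l each ended without any of 5 libraries (edgeR FDR up to 0.293 and 0.166), and marveld3.1 and tjp1.l ended without NNE replicate 3 (0.0733 and 0.106). With the replicate block cldn6.2.s and marveld2.s were called too (0.0389 and 0.0388).

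ANB/PPE, which includes anterior border, differed from NNE in 9 of 26 loci, 3 higher and 6 lower. Over all loci, 8.85% were called (2.93% higher and 5.92% lower). Claudin-3 is a sealing claudin of many epithelia. cldn3.l was at 2.03, 0.569, and 1.99 CPM in ANB/PPE and had 0 counts in NNE, at least 15.5-fold higher (edgeR FDR 0.0097). Outside ANB/PPE its highest St. 12.5 value was 0.214 CPM, in NBl. It exceeded the count minimum of this fit in ANB/PPE replicates 1 and 3 alone, so it could enter the test only by being high there, and its values are a description. jam3.s was higher as well, at 19.7, 21.1, and 44.3 CPM against 3.02, 4.71, and 7.14 CPM in NNE (2.47 ± 0.44, edgeR FDR 0.0016). Lower in ANB/PPE were cldn1.l (-5.20 ± 1.05, edgeR FDR 0.00571), cldn4.l (-1.62 ± 0.28, edgeR FDR 0.00124), ocln.s (-0.98 ± 0.24, edgeR FDR 0.0137), ocln.l (-0.79 ± 0.21, edgeR FDR 0.0209), cldn1.s (-1.63 ± 0.47, edgeR FDR 0.0375), and tjp1.l (-1.78 ± 0.54, edgeR FDR 0.045); cldn5.s was called higher (5.24 ± 1.58, edgeR FDR 0.0423). The count fell to 4 to 6 without single libraries, and jam3.s and cldn4.l held in every such fit. cldn1.l did too, but it exceeded the count minimum in the NNE libraries alone, so its values are a description. cldn3.l fell below the count minimum and was not tested without ANB/PPE replicate 1 or 3. The call of cldn5.s ended in 6 of 6 such fits, tjp1.l in 5, cldn1.s in 4, and each occludin copy in 3. The count was 4 without ANB/PPE replicate 3 and 5 without ANB/PPE replicate 1 or 2 or NNE replicate 3. Epidermis markers summed to 1427 to 2568 CPM in ANB/PPE and 6289 to 6990.2 CPM in NNE. Goblet cell markers summed to 36.9 to 129.7 and 403 to 1224 CPM, and ionocyte markers to 7.51 to 70.5 and 319 to 519.7 CPM. Neural plate markers went the other way, at 109 to 211 CPM in ANB/PPE and 14.7 to 22.6 CPM in NNE. The part of these lists in the differences was not tested.

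Anterior and posterior plate differed in 2 of 26 loci, both lower in NPa, where 3.73% of all loci were called (0.74% higher and 2.99% lower). ocln.l was at 180.2, 249, and 210.3 CPM in NPa and 321, 358, and 390.5 CPM in NPp (-0.79 ± 0.21, edgeR FDR 0.033), and the low-count cldn3.s at 0, 0.541, and 0.954 and 1.31, 2.303, and 6.37 CPM (-2.70 ± 0.71, edgeR FDR 0.0359). Neither call held in every fit that left out 1 library: ocln.l ended without any of 5 of the 6 (edgeR FDR up to 0.163) and cldn3.s without NPa replicate 1 or 2 or NPp replicate 3 (up to 0.259). Without the St. 12.5 libraries that held paraxial mesoderm markers, ocln.l was at -0.87 (edgeR FDR 0.0698). The axial mesoderm values of NPa and NPp given above were apart too, and the part of those cells was not tested.

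At St. 14, the mid-neurula, both copies of cldn1 and cldn4 were again higher in NNE than in plate, and the NNEp libraries held the highest cldn1 values. cldn1.l was at 217, 209, and 261 CPM in the 3 NNEp libraries, 26.2, 5.27, and 1.48 CPM in NNEa, 0.594, 0.404, and 3.46 CPM in NPa, and 0.23, 0.605, 0.207, and 0 CPM in NPp. Its S copy was at 161, 184, and 231 CPM in NNEp and 38.2, 124, and 43.9 CPM in NNEa, with 0.42 to 15.1 CPM in the plate. Both copies were higher in NNE than in plate, cldn1.l by 6.28 ± 1.13 (edgeR FDR 3.96e-05) and cldn1.s by 4.94 ± 0.79 (edgeR FDR 9.4e-06), and the L copy alone had an NNEa library (1.48 CPM) below a plate library (3.46 CPM). cldn4.l was at 1395, 769, and 725 CPM in NNEa, 1068, 953, and 1234 CPM in NNEp, and 201 to 522 CPM in the plate (1.47 ± 0.29, edgeR FDR 0.000141), and cldn4.s at 1178, 504, and 450.2, 907, 789, and 1176, and 48.3 to 159 CPM (3.13 ± 0.45, edgeR FDR 1.99e-06). No NNE library fell to the plate's range for either copy. Rare claudins of the kidney tubule in mammals, cldn8.1.l (0.517 to 2.57 CPM in NNE, at most 0.136 in plate; 4.67 ± 1.07, edgeR FDR 0.000679) and cldn16.s (0.289 to 1.91 CPM, 49 against 2 counts, ratio 33.97, 95% exact counting interval 8.91 to 288; edgeR FDR 0.000304), passed the test on the same side, with largest counts of 34 and 21 in any library. Both loci exceeded the count minimum in just 1 library outside NNE, so their calls here and against the border are a description. cldn16.s was not tested without NNEa replicate 2.

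In all, 12 of 29 loci were higher in NNE and 8 lower, where 45% of all 22,582 loci were called, 23.8% higher and 21.2% lower, and their median difference was 0.49 beside 0 over all loci. The smallest p among them belonged to jam3.s, at 118, 129, and 105 CPM in NPa, 119, 112, 80.8, and 68.003 CPM in NPp, 15.7, 19.3, and 21.6 CPM in NNEa, and 1.64, 1.64, and 0.378 CPM in NNEp (-4.43 ± 0.37, edgeR FDR 1.03e-09). jam3.l (-3.34 ± 0.77, edgeR FDR 0.00067), tjp1.s (-1.56 ± 0.24, edgeR FDR 6.94e-06), and cldn5.s (-5.22 ± 1.27, edgeR FDR 0.00133) were lower in NNE as well, and cldn5.l had 0 counts in all 6 NNE libraries against 0.203 to 2.18 CPM in plate, at least 19.2-fold higher there (edgeR FDR 0.0001). marveld3.1 separated the tissues without overlap, with 16.4 to 49.1 CPM in NNE and 2.23 to 8.31 CPM in plate (2.79 ± 0.30, edgeR FDR 3.69e-08). The copies of tjp1 went opposite ways, but the higher call of tjp1.l (0.63 ± 0.26, edgeR FDR 0.0497) ended without any of 11 of the 13 libraries (edgeR FDR up to 0.255). Besides tjp1.l, ocln.l (without NNEa replicate 1, 0.0554) and cldn6.2.l (without NNEa replicate 2 or NNEp replicate 2, 0.0618) lost their call to a left-out library, and with the replicate block cldn12.s, cldn6.1.l, and marveld2.l were also called (0.0124, 0.0265, and 0.0357).

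The border at St. 14 was higher than the plate in 6 of 29 loci and lower in 6, where 21.3% of all loci were called (11.6% higher and 9.71% lower). marveld3.1, a MARVEL protein of the junction, led them at 11.9 to 17.8 (median 12.8) CPM in NBa and 14.1, 15.7, 18.2, 17.1, and 12.2 CPM in NBp, all above the plate's 8.31 CPM (1.76 ± 0.27, edgeR FDR 3.94e-05). cldn1.s was at 5.32 to 53.7 (median 19.2) CPM in NBa and 67.5, 56.3, 6.06, 7.37, and 6.93 CPM in NBp (2.87 ± 0.68, edgeR FDR 0.00367), overlapping the plate's upper value of 15.1 CPM. cldn1.l (2.80 ± 0.96, edgeR FDR 0.0362), cldn4.s (1.47 ± 0.38, edgeR FDR 0.00729), and cldn23.l (1.45 ± 0.43, edgeR FDR 0.0169) were also higher in the border. Lower were tjp1.s (14.5 to 35.7 CPM against 40.4 to 84.5 CPM in plate; -1.05 ± 0.20, edgeR FDR 0.000493), cldn6.2.s (-1.08 ± 0.33, edgeR FDR 0.019), cldn12.l (-0.59 ± 0.16, edgeR FDR 0.00954), jam3.l (-1.78 ± 0.57, edgeR FDR 0.0243), jam3.s (-0.91 ± 0.26, edgeR FDR 0.0124), and tjp1.l (-0.68 ± 0.23, edgeR FDR 0.0315). The last 3 calls were lost with the replicate block (edgeR FDR 0.115, 0.164, and 0.188), under which cldn12.s, cldn6.2.l, and marveld2.l were gained (0.0441, 0.0196, and 0.00619). Without single libraries, cldn1.l ended in 8 of 18 fits (edgeR FDR up to 0.0938), tjp1.l without NPp replicate 1 or NPa replicate 2 or 3 (0.0656), cldn23.l without NPa replicate 1 or 2 (0.0618), and cldn6.2.s and jam3.l without NPa replicate 1 (0.0577 and 0.0517).

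NNE against border gave 12 of 29 loci higher and 4 lower, where 41.2% of all loci were called (21.6% higher and 19.6% lower). Both copies of occludin were higher in NNE here, ocln.s at 245, 163, and 161 CPM in NNEa and 287, 247, and 368 CPM in NNEp against 26.1 to 153 CPM in the border (1.51 ± 0.31, edgeR FDR 0.000262), and ocln.l by 1.12 ± 0.26 (edgeR FDR 0.000942). The 5 largest rises were those of cldn8.1.l (3.53 ± 0.84, edgeR FDR 0.00138), cldn1.l (3.48 ± 0.79, edgeR FDR 0.000855), cldn16.s (3.12 ± 0.76, edgeR FDR 0.00181; not tested without NNEa replicate 2), cldn1.s (2.07 ± 0.59, edgeR FDR 0.00595), and cldn4.s (1.66 ± 0.37, edgeR FDR 0.000663), with cldn4.l at 1.15 ± 0.26 (edgeR FDR 0.000716). jam3.s was lower in every NNE library than in any border library (-3.52 ± 0.34, edgeR FDR 1.53e-08), cldn5.l was at least 14.2-fold lower (edgeR FDR 0.000265), and cldn5.s and cldn6.1.l were lower as well, at -5.29 ± 1.23 (edgeR FDR 0.00116) and -1.11 ± 0.42 (edgeR FDR 0.0343). The cldn6.1.l call ended without any of 6 of the 17 libraries (edgeR FDR up to 0.0953), and the calls of cldn23.l and cldn5.s were lost with the replicate block (0.0769 and 0.0589).

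ANF/PPE differed from the adjoining NNEa in 3 loci higher and 3 lower of 29, where 13.2% of all loci were called (4.84% higher and 8.32% lower). cldn3.l was at 1.72, 0.961, 10.997, 40.2, and 8.13 CPM in the 5 ANF/PPE libraries, and at or under 1.29 CPM in every other dissected St. 14 library, 1 of which exceeded the count minimum. NNEa had 0.284, 0, and 0 CPM, so the groups did not overlap, and replicate 4 of ANF/PPE was far above the rest (811 against 3 counts, ratio 153, 95% exact counting interval 52.3 to 745; edgeR FDR 0.00988). cldn5.l was at least 8.32-fold higher in ANF/PPE, where NNEa had 0 counts (edgeR FDR 0.016), and cldn5.s was higher by 4.50 ± 1.35 (edgeR FDR 0.027). cldn1.l (-5.10 ± 1.38, edgeR FDR 0.0144), tjp1.l (-1.34 ± 0.34, edgeR FDR 0.00844), and ocln.l (-1.23 ± 0.37, edgeR FDR 0.0264) were lower. Only cldn3.l held without each single library, but it could enter this fit only through its ANF/PPE counts, so its values are a description. The count fell to 1 without NNEa replicate 1, at which cldn1.l had an edgeR FDR of 0.193 and tjp1.l of 0.156. ocln.l also ended without ANF/PPE replicate 1 (edgeR FDR up to 0.222). The replicate block ended the calls of cldn5.l and cldn5.s (edgeR FDR 0.0655 and 0.0621). The border and crest list was at 22.4 to 292 CPM in ANF/PPE and 508 to 658 CPM in NNEa, and its part in these differences was not tested.

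Along the anterior-posterior axis, jam3.s was the only one of the 29 loci called between NNEa and NNEp, where 2.96% of all loci were called (2.13% higher and 0.833% lower). It was at 15.7, 19.3, and 21.6 CPM in NNEa and 1.64, 1.64, and 0.378 CPM in NNEp (3.94 ± 0.53, edgeR FDR 3.46e-05). The groups were far apart, and the call held without each library in turn. NNEp replicates 2 and 3 came from 1 embryo, however, and replicate 1 of NNEp and of NNEa from another. Leaving out 1 library thus does not leave out each animal. cldn1.l, at most 26.2 CPM in NNEa and at least 209 CPM in NNEp, did not pass over all loci (-4.46 ± 1.45, edgeR FDR 0.0938), and its NNEa libraries were far apart; 3 loci were called without NNEa replicate 1, which held the highest cldn1.l of that group. Secretory goblet cell markers (2 of 2 names, 3 loci, 2 of them with counts) summed to 2259.8 to 4017 CPM in NNEp and 318 to 2486 CPM in NNEa. Ionocyte markers (2 of 3 names, 3 loci) summed to 276 to 438 and 62.4 to 118 CPM. The neural border and crest list went the other way, at 25.4 to 36.6 CPM in NNEp and 508 to 658 CPM in NNEa. Neural plate markers did too, at 7.22 to 8.25 and 17.7 to 64.5 CPM. The part of these lists in the cldn1 and jam3 values was not tested. Between NPa and NPp, 0 of 29 loci were called by edgeR (2.08% of all loci were, 1.04% higher and 1.04% lower), with 4 at an unadjusted p under 0.05 (ocln.l, ocln.s, cldn6.2.l, and cldn6.2.s, all lower in NPa) and 3 called by DESeq2 and 2 by limma-voom.

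The undivided St. 14 fragments gave 2 loci higher in border and 1 lower of 29, where 15% of all loci were called (6.92% higher and 8.1% lower). marveld3.1 was higher, at 20.6, 34.6, 14.6, and 14.9 CPM in NB and 2.1998 and 4.49 CPM in NP (2.69 ± 0.51, edgeR FDR 0.000798). cldn6.2.l was lower, at 335, 388, 237, and 118 CPM in NB and 564 and 1494 CPM in NP (-1.91 ± 0.48, edgeR FDR 0.00726), and lost its call without NP replicate 2 (edgeR FDR 0.36), the library with 2284 CPM of paraxial mesoderm markers. Both plate libraries of this contrast were over 100 CPM of that list, so no fit without them could be made, and the part of those cells was not tested. Titles of both plate libraries carry the prefix B100 and those of all 4 border libraries B108, so prefix and tissue cannot be told apart in this contrast.

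At St. 17, when neural crest is about to leave the epithelium, every called locus was lower in NC than in Pc: 9 of 29 fell and 0 rose, where 12.6% of all loci were called, 8.26% lower and 4.39% higher. cldn1.l was at 14.5, 20.5, 19.04, and 15.7 CPM in the 4 NC libraries and 336 and 325 CPM in the 2 Pc libraries (-4.16 ± 1.09, edgeR FDR 0.00928). ocln.l had the smallest p, at 68.02, 62.1, 58.98, and 63.4 CPM in NC and 183 and 198 CPM in Pc (-1.51 ± 0.35, edgeR FDR 0.00303). ocln.s was at 32.996, 44.3, 54.1, and 40.1 and 107 and 106 CPM (-1.24 ± 0.43, edgeR FDR 0.047). The libraries of the groups did not overlap for 15 of the 29 loci, the 9 called ones among them. That share was not computed over all loci, so it adds no weight to the calls. cldn23.l (-1.83 ± 0.63, edgeR FDR 0.0462), cldn4.s (-1.68 ± 0.52, edgeR FDR 0.0264), tjp1.l (-1.66 ± 0.44, edgeR FDR 0.00893), and cldn4.l (-1.07 ± 0.38, edgeR FDR 0.0497) were also called. jam3.s pointed the other way without passing the test, at 55.01, 65.7, 56.2, and 74.8 CPM in NC and 42.1 and 28.6 CPM in Pc (0.91 ± 0.47, edgeR FDR 0.188).

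With 2 placode libraries the calls were fragile. Without a single library 1 to 7 loci were called, 1 without Pc replicate 2, 2 without Pc replicate 1, and 4 without NC replicate 1 or 2, and each of the 9 calls ended without at least 1 library. Epidermis markers were at 5295 to 6002 CPM in Pc and 1825 to 2381 CPM in NC, goblet cell markers at 1522 to 1861 and 388 to 1081 CPM, and endoderm markers (4 of 6 names, 8 loci, 2 of them at 0 in Pc and 1 in NC) at 84.01 to 139 and 2.22 to 3.89 CPM, and their part in the difference was not tested.

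From St. 12.5 to St. 14, ocln.l and both copies of tricellulin and claudin-5 fell in the plate, and both copies of tjp1 and jam3 rose. Of 29 loci, 9 rose and 12 fell, where 56.1% of all 24,105 loci were called (30.4% higher and 25.7% lower), and the median of all loci lay at 0.15, beside -0.41 for the 29; values below include that shift. cldn5.s was at 6.28 to 49.01 CPM in the St. 12.5 plate libraries and 0.52 to 3.53 CPM at St. 14 (-3.95 ± 0.79, edgeR FDR 3.7e-05). marveld2.s was at 11.9 to 19.5 CPM and then 0.336 to 7.22 CPM (-3.51 ± 0.65, edgeR FDR 1.02e-05), and marveld2.l at 65.1 to 127 CPM and then 20.1 to 49.3 CPM (-1.35 ± 0.33, edgeR FDR 0.000489). The stages did not overlap for these 3 loci. marveld3.1 (-1.67 ± 0.29, edgeR FDR 3.39e-06), cldn5.l (-2.58 ± 0.80, edgeR FDR 0.00564), cldn3.s (-3.09 ± 0.81, edgeR FDR 0.00121), and ocln.l (-1.17 ± 0.23, edgeR FDR 3.58e-05) fell as well. tjp1.s was at 4.47 to 29.7 CPM and then 40.4 to 84.5 CPM (1.58 ± 0.30, edgeR FDR 1.37e-05), and jam3.s at 33.01 to 64.8 CPM and then 68.003 to 129 CPM (1.24 ± 0.30, edgeR FDR 0.000415). tjp1.l rose by 1.41 ± 0.30 (edgeR FDR 0.000113) and jam3.l by 1.75 ± 0.64 (edgeR FDR 0.0187). cldn1.s rose from at most 0.273 CPM to 0.42 to 15.1 CPM (6.69 ± 1.14, edgeR FDR 2.9e-06), cldn1.l by at least 19.9-fold from 0 counts (edgeR FDR 0.0136), and the rare marveld1.l went from 2 to 37 counts over the plate libraries (ratio 13.97, 95% exact counting interval 3.604 to 119.6; edgeR FDR 0.0112). 16 of the 21 calls held without each library; among the rest, cldn23.l ended without any of 6 of 13 libraries (edgeR FDR up to 0.215), cldn12.s without any of 9 (0.113), cldn6.2.l without NPp replicate 3 of St. 12.5 (0.0672), and jam3.l without NPp replicate 2 of St. 12.5 (0.056), which held paraxial mesoderm markers. In the plate libraries the epidermis list was at 8.79 to 78.9 CPM at St. 12.5 and 12.8 to 910.5 CPM at St. 14, goblet cell markers at 0.136 to 1.12 and 0.69 to 163 CPM, and the border and crest list in NPa at 9.27 to 18.2 and 557 to 1509 CPM, and their part in these changes was not tested.

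In the border, 8 of 29 loci were higher and 13 lower at St. 14, where 58.4% of all loci were called (32.4% higher and 26% lower) and the median of all loci lay at 0.17. cldn1.s was at 0 to 0.484 CPM and then 5.32 to 67.5 CPM (7.99 ± 0.87, edgeR FDR 8.98e-11), and cldn1.l went from 2 to 657 counts (ratio 186, 95% exact counting interval 51.2 to 1536; edgeR FDR 9.02e-06). cldn3.l and cldn16.s had 0 counts in the St. 12.5 border and rose at least 3.58-fold and 2.07-fold (edgeR FDR 0.0427 and 0.0151), and marveld1.l went from 2 to 26 counts (ratio 7.35, 95% exact counting interval 1.84 to 63.9; edgeR FDR 0.0445). Among the falls, cldn3.s (-3.91 ± 0.70, edgeR FDR 5.42e-06), cldn5.s (-3.27 ± 0.63, edgeR FDR 2.16e-05), marveld2.s (-2.72 ± 0.51, edgeR FDR 1.15e-05), cldn5.l (-2.52 ± 0.68, edgeR FDR 0.00146), and marveld2.l (-1.82 ± 0.28, edgeR FDR 2.37e-07) were the largest, and both copies of occludin fell, ocln.l being at 165 to 401 CPM and then 44.6 to 197 CPM (-1.44 ± 0.20, edgeR FDR 2.75e-08) and ocln.s differing at -1.28 ± 0.24 (edgeR FDR 1.56e-05). Without NBa replicate 1 of St. 12.5, the border library with 45.3 CPM of cldn5.s, the log2 difference of cldn5.s was -1.96 (edgeR FDR 0.00373). The calls of 3 loci ended without single libraries: cldn3.l in 11 of 18 fits (edgeR FDR up to 0.169), marveld1.l in 10 (0.115), and cldn5.l without NBa replicate 1 of St. 12.5 (0.301). Without the libraries that held paraxial mesoderm markers, cldn3.l was at an edgeR FDR of 0.0743. The epidermis list was at 123.5 to 1095 CPM in NBa at St. 12.5 and 503 to 2716 CPM at St. 14, and in NBp at 110.0 to 296 and then 951 to 2932 CPM. Goblet cell markers were at 0.803 to 15.2 and then 6.76 to 431 CPM in NBa and at 0.878 to 10.3 and then 56.6 to 432 CPM in NBp, and the part of either list in these changes was not tested. The plate and border comparisons were fitted together and share one estimate of the spread.

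In NNE, 1 of 29 loci was higher and 4 lower at St. 14, where 30.4% of all loci were called (15.3% higher and 15.1% lower). marveld2.s was at 20.6, 16.9, and 23.2 CPM and then 0.379 to 11.5 CPM (-3.39 ± 0.74, edgeR FDR 0.000374), and marveld2.l fell too (-1.18 ± 0.40, edgeR FDR 0.0196). cldn4.l was at 2617, 2043, and 1836 CPM and then 725 to 1395 CPM (-1.07 ± 0.31, edgeR FDR 0.00601), with no overlap, while cldn4.s did not pass (-0.77 ± 0.43, edgeR FDR 0.173). cldn3.s fell (-3.50 ± 0.91, edgeR FDR 0.00255), and jam3.l rose at least 2.25-fold from 0 counts (edgeR FDR 0.0387), a call that ended without any of 5 of the 9 libraries. The count was 3 without NNE replicate 1 of St. 12.5, which also ended the call of marveld2.l (0.113).

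Tested directly, the NNE minus plate difference shrank from St. 12.5 to St. 14 for 2 of 29 loci and grew for 0, where 12.8% of all loci were called (5.91% higher and 6.85% lower). For cldn1.s it went from 10.80 to 4.94 in the fits of the separate stages, a change of -5.79 ± 1.46 (edgeR FDR 0.0054) in the joint fit. For cldn4.l it went from 2.88 to 1.47 (-1.28 ± 0.40, edgeR FDR 0.0255), and this call ended without NNE replicate 1 of St. 12.5 or NPa replicate 3 of St. 14 (edgeR FDR up to 0.0714). Between the stages cldn1.s rose in the plate (above) and in NNE did not pass (0.91 ± 0.73, edgeR FDR 0.367), and cldn4.l fell in NNE and in the plate did not pass (0.21 ± 0.25, edgeR FDR 0.495). The part of the epidermis, goblet, and border markers given above for the plate was not tested here either.

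In NC against the St. 14 border and in Pc against St. 14 ANF/PPE, cldn6.1.l was lower and both copies of cldn1 higher at St. 17. In NC against the St. 14 border, 3 of 29 loci were higher and 8 lower, where 28.9% of all loci were called (14.7% higher and 14.2% lower). cldn6.1.l was at 8.102, 10.5, 9.42, and 3.02 CPM in NC and 7.79 to 97.2 CPM in the border (-2.81 ± 0.49, edgeR FDR 3.3e-05), and cldn6.2.l at 52.4, 52.6, 94.3, and 53.2 and 82.6 to 669 CPM (-2.11 ± 0.34, edgeR FDR 1.15e-05). NBp replicate 2 lay within the NC range for both loci, and 1 NBa library, at 82.6 CPM, for cldn6.2.l. Titles of NBp replicates 1, 3, and 5 carry the prefix B100, and these libraries held 669, 629, and 486 CPM of cldn6.2.l. NBp replicates 2 and 4, with the prefix B108, held 94.3 and 258 CPM. With only B108 libraries the count of called loci in this contrast fell from 11 to 3, and the part of the prefix in these differences was not tested. cldn6.2.s (-1.85 ± 0.44, edgeR FDR 0.0014), marveld2.l (-1.62 ± 0.38, edgeR FDR 0.000999), and ocln.s (-1.04 ± 0.32, edgeR FDR 0.0107) were lower too, with ocln.l at -0.79 ± 0.25 (edgeR FDR 0.0163). cldn3.s (2.197 ± 0.81, edgeR FDR 0.0365), cldn1.l (1.92 ± 0.71, edgeR FDR 0.0358), and cldn1.s (1.63 ± 0.54, edgeR FDR 0.0192) were higher; each of these 3 calls ended without at least 1 NC library (edgeR FDR up to 0.128, 0.0794, and 0.0735), as did those of cldn4.l and ocln.l (0.0807 and 0.0516).

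In Pc against ANF/PPE of St. 14, 7 of 29 loci were higher and 4 lower, where 31.3% of all loci were called (17.5% higher and 13.8% lower). cldn1.l was at 336 and 325 CPM in Pc and at most 1.18 CPM in ANF/PPE (9.96 ± 1.30, edgeR FDR 1.88e-07), the largest difference of the 29 in this contrast. cldn1.s (3.22 ± 0.78, edgeR FDR 0.00125), tjp1.l (114 and 95.8 CPM against 27.6, 13.03, 19.7, 14.5, and 12.996 CPM; 2.42 ± 0.41, edgeR FDR 1.26e-05), cldn8.1.l (3.74 ± 1.23, edgeR FDR 0.0178), and cldn23.l (1.71 ± 0.60, edgeR FDR 0.0237) were higher as well. cldn3.l (-4.21 ± 1.499, edgeR FDR 0.0299), cldn6.1.l (-2.43 ± 0.69, edgeR FDR 0.00576), cldn12.l (-1.28 ± 0.28, edgeR FDR 0.000394), and cldn12.s (-0.94 ± 0.28, edgeR FDR 0.00858) were lower, claudin-12 being an atypical claudin without the usual scaffold-binding end. The count fell to 6 without either Pc library, and cldn1.l, cldn1.s, tjp1.l, and cldn12.l were the 4 that held in every such fit. The study took Pc from the lateral preplacodal domain and ANF/PPE together with the anterior neural fold, so stage and position cannot be told apart. Pc libraries held more epidermis marker counts (5295 to 6002 CPM) than ANF/PPE libraries (452 to 2021 CPM). They held fewer neural plate marker counts, at 25.4 to 28.9 CPM against 96.4 to 276 CPM. The part of such cells was not tested.

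In whole embryos from St. 11-11.5 to St. 18-19, both copies of marveld2 and occludin declined while those of cldn1 and the S copy of jam3 rose. Of 27 loci tested, 9 were higher at St. 18-19 and 12 lower, where 68.5% of all 23,274 loci were called (36.5% higher and 32.1% lower). cldn1.l had 0 counts in both libraries of St. 11-11.5, then 1.29 and 0.209 CPM at St. 12.5, 22.4 and 11.8 CPM at St. 13, and 93.2 and 99.9 CPM at St. 18-19, at least 1049-fold higher (edgeR FDR 5.75e-06). cldn1.s was detected earlier, at 7.48 and 1.46 CPM at St. 12 and 139.5 and 85.2 CPM at St. 18-19, against 3 counts at St. 11-11.5 (ratio 1244, 95% exact counting interval 425 to 6037; edgeR FDR 4.83e-06). cldn6.1.l took the opposite course and had the smallest p (-4.09 ± 0.18, edgeR FDR 6.64e-09). It went from 244 and 178 CPM to 53.96 and 49.6 CPM at St. 12.5 and 13.3 and 14.05 CPM at St. 18-19. Its S copy, cldn6.1.s, was at 87.1 and 42.2 CPM at St. 11-11.5 and 50.3 and 36.5 CPM at St. 18-19.

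**Figure D3:**
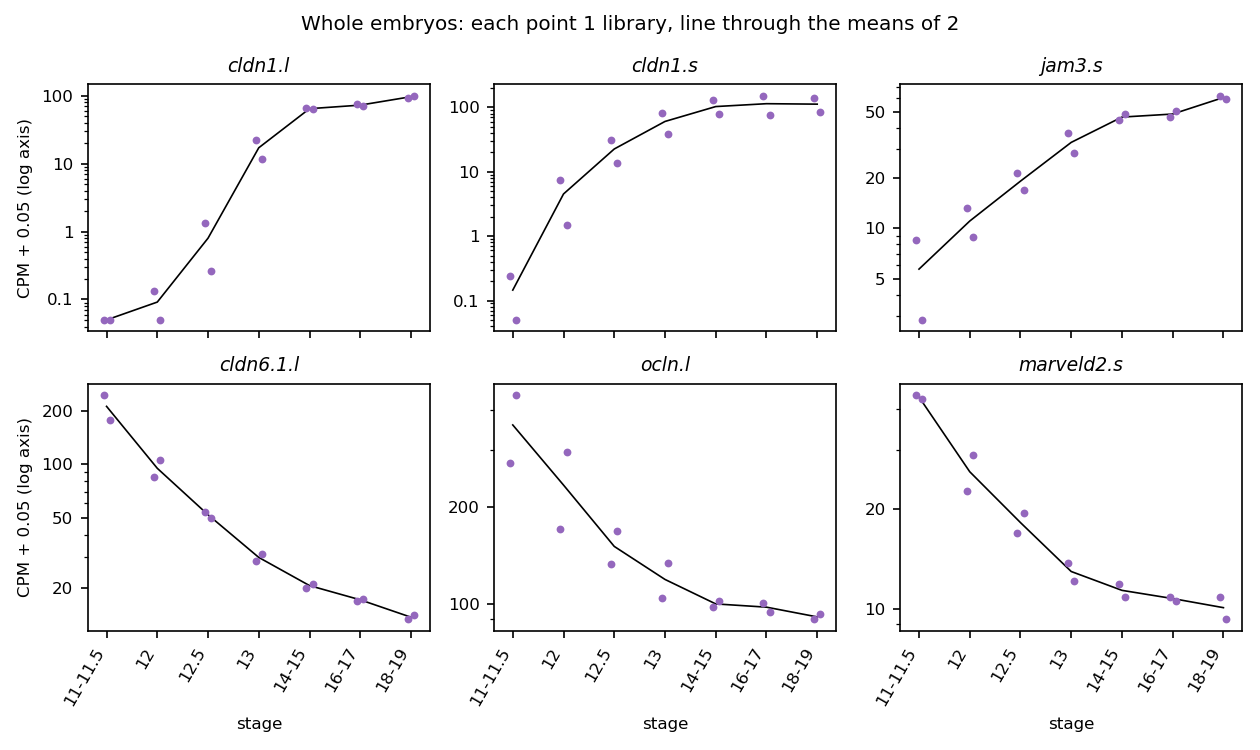
CPM of cldn1.l, cldn1.s, jam3.s, cldn6.1.l, ocln.l, and marveld2.s in the whole-embryo libraries by stage label, 2 libraries a stage, with points for libraries. The axis is CPM + 0.05 on a log scale and the line joins stage means; the separate St. 14 pair is not drawn. The cldn1 and jam3.s values at St. 18-19 are above those at St. 11-11.5, and those of cldn6.1.l, ocln.l, and marveld2.s below them.

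jam3.s rose from 8.51 and 2.78 CPM to 62.2 and 59.1 CPM (3.29 ± 0.38, edgeR FDR 9.15e-06), while jam3.l, at 1.81 ± 0.65 (edgeR FDR 0.0265), lost its call without St. 11-11.5 replicate 2 or either St. 18-19 library (FDR up to 0.16). cldn3.l rose from 0.127 and 0.295 to 7.08 and 6.29 CPM (4.78 ± 0.49, edgeR FDR 3.04e-06). marveld1.l and cldn8.1.l went from 0 counts to at least 9.81-fold and 7.78-fold higher (edgeR FDR 0.00342 and 0.00176), marveld1.l being under the count minimum and not tested without St. 18-19 replicate 2. Of the 16 whole-embryo libraries, marveld1.l exceeded that minimum in 2, St. 16-17 replicate 2 (13 counts) and St. 18-19 replicate 2 (19 counts), so its call is a description. ocln.l fell from 274 and 443 to 89.9 and 93.03 CPM (-2.11 ± 0.25, edgeR FDR 1.18e-05), ocln.s fell as well (-1.80 ± 0.12, edgeR FDR 8.55e-08), marveld2.s fell from 43.96 and 42.8 to 10.8 and 9.23 CPM (-2.25 ± 0.17, edgeR FDR 2.27e-07), and marveld2.l followed (-1.83 ± 0.18, edgeR FDR 2.65e-06). The copies of tjp1 parted again, tjp1.l rising by 1.69 ± 0.18 (edgeR FDR 3.45e-06) and tjp1.s falling, at -0.53 ± 0.19 (edgeR FDR 0.025), the latter call ending without St. 11-11.5 replicate 1 or St. 18-19 replicate 1 (edgeR FDR up to 0.135). The separate St. 14 pair did not lie on this course for every locus: cldn1.l was at 9.12 and 1.31 CPM there and 65.02 and 63.7 CPM at St. 14-15, and ocln.s at 171 and 157 and 74.2 and 74.3 CPM.

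Averaged over the 7 regions on the log2 scale, dissected ectoderm at St. 12.5 differed from whole embryos of that stage in 1 locus higher and 3 lower of 29, where 30.2% of all loci were called (10.7% higher and 19.5% lower). cldn6.2.l was higher in ectoderm, at 244 to 1253 CPM against 172 and 200.3 CPM in whole embryos (1.48 ± 0.40, edgeR FDR 0.00316). tjp1.s (-1.24 ± 0.32, edgeR FDR 0.00234) and tjp1.l (-1.08 ± 0.34, edgeR FDR 0.0114) were lower, with whole embryos at 30.9 and 28.8 and 26.9 and 21.8 CPM. cldn1.s was called lower (-4.81 ± 0.67, edgeR FDR 7.59e-08) although the NNE libraries, at 74.6, 45.97, and 65.8 CPM, were above both whole-embryo libraries, at 31.6 and 13.5 CPM. Only the cldn1.s call held without each library, and the count was 1 without whole-embryo replicate 1. At St. 14, 1 of 29 loci, cldn12.l, was higher in ectoderm (0.78 ± 0.24, edgeR FDR 0.0107). Another 2 were lower, among them cldn3.l (-2.88 ± 0.89, edgeR FDR 0.0143). For cldn3.l, all 5 ANF/PPE libraries, at 0.961 to 40.2 CPM, were nonetheless above both whole-embryo libraries, at 0.846 and 0.872 CPM. Over all loci, 24.2% were called (7.82% higher and 16.4% lower). None of the 3 calls held in every fit that left out 1 library.

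The L and S copies of these genes did not share one pattern. A test of whether the L to S ratio differed across the 7 regions called 6 of 12 pairs at St. 12.5 (36.1% of all 4449 pairs tested) and 7 of 11 at St. 14 (37.2% of 4750), and nothing particular to these pairs is read from those counts. In the ZO-1 pair, tjp1.l made up 66.8% to 78.03% of the counts of both copies in NNE at St. 12.5 and 38.6% to 43.5% in NPa (FDR 0.000656, edgeR's quasi-likelihood test of the ratio). At St. 14 it was 71.4% to 84.6% in NNEp, 54.5% to 78.3% in NNEa, and 30.8% to 37.8% in NPp (edgeR FDR 1.2e-05). Of the dissected regions of these stages, nonneural ectoderm alone had the L copy in the majority in all of its libraries, while tjp1.s led in NPp.

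**Figure D4:**
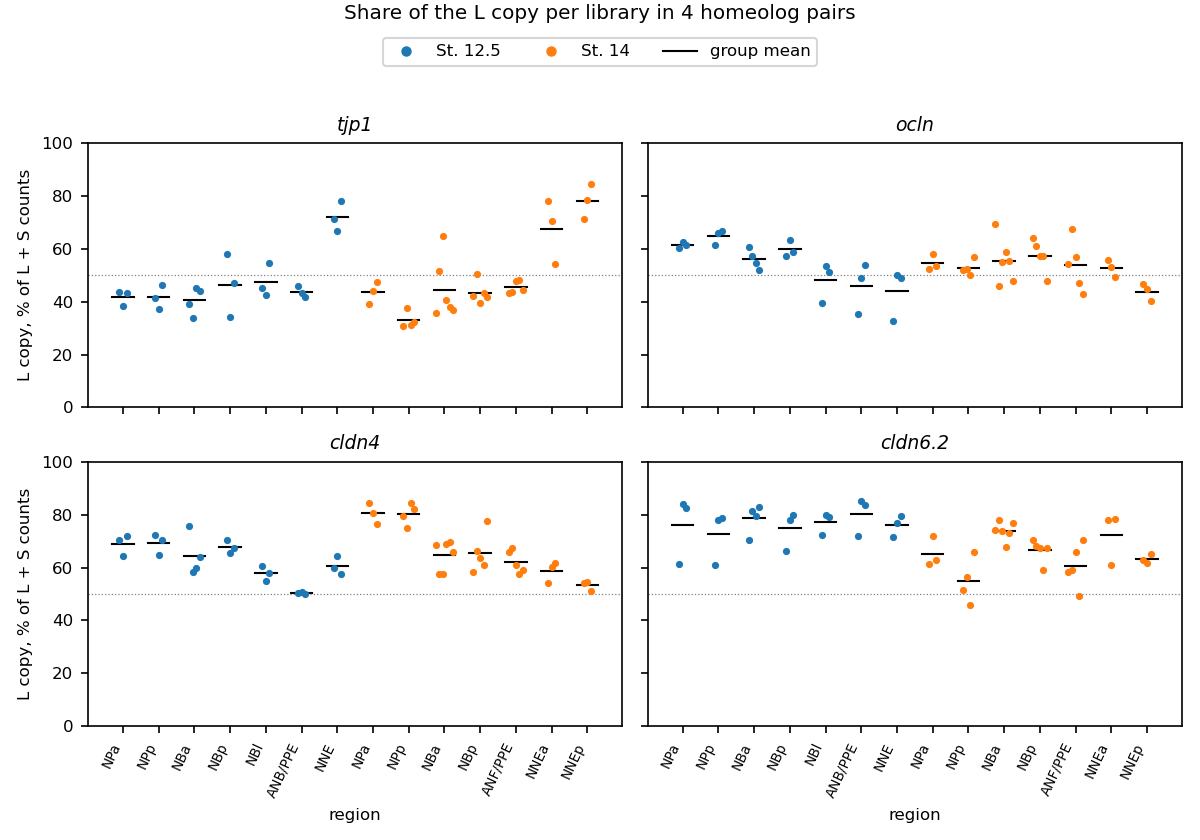
Share of the L copy in the summed counts of both copies, in percent, in each dissected library of both earlier stages for tjp1, ocln, cldn4, and cldn6.2. tjp1 rises above 50% in NNE, NNEa, and NNEp, and cldn4 is most L-weighted in the St. 14 plate.

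cldn4 was L-weighted in the plate, at 74.8% to 84.4% in NPp and 76.6% to 84.5% in NPa at St. 14, and closer to even in NNEp, at 51.2% to 54.7% (edgeR FDR 1.21e-05); at St. 12.5 the lowest L share was in ANB/PPE, at 50.2% to 50.9% (0.00185). cldn1 was S-weighted in all regions but NNEp at St. 14, where the L share was 52.96% to 57.4% against 0% to 4.35% in ANF/PPE (edgeR FDR 0.00145). cldn3 was nearly all S outside ANB/PPE at St. 12.5 and 17.1% to 51.02% L within it (edgeR FDR 0.00383). Its L copy exceeded the count minimum in ANB/PPE replicates 1 and 3 alone. The pair could thus enter the test only through ANB/PPE, and its shares are a description. marveld2 (0.0133) and occludin (0.00371) were also called at St. 12.5, both with their lowest L share in NNE, and cldn6.1 (0.00142), cldn6.2 (0.00457), and jam3 (0.0343) at St. 14. jam3 was almost all S, so its ratio rests on few L counts. Pairs mapping to more than 1 place were excluded by the authors before counting, so a stretch that the copies share in sequence counts for neither.

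At St. 12.5, 3 embryos gave 1 fragment of each of the 7 regions, and several claudins differed among them. With region in the model, 4 of 26 loci differed among the embryos, where 7.55% of 20,880 loci did; this comparison was chosen after the values had been seen. cldn6.1.s averaged 37.9 CPM over the 7 fragments of embryo 4, 128 CPM in embryo 5, and 151 CPM in embryo 7, and embryo 4 was lowest in 7 of 7 regions (edgeR FDR 0.00325). cldn6.2.s went the other way, at 264, 115, and 148 CPM, with embryo 4 highest in 7 of 7 regions (edgeR FDR 0.00131). These loci are neighboring copies, and whether counting split reads between them was not tested. cldn5.s (24.7, 11.1, and 5.19 CPM; edgeR FDR 0.0087) and cldn5.l (6.49, 1.83, and 1.095 CPM; 0.0132) were highest in embryo 4 in 6 of 7 regions.

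**Figure D5:**
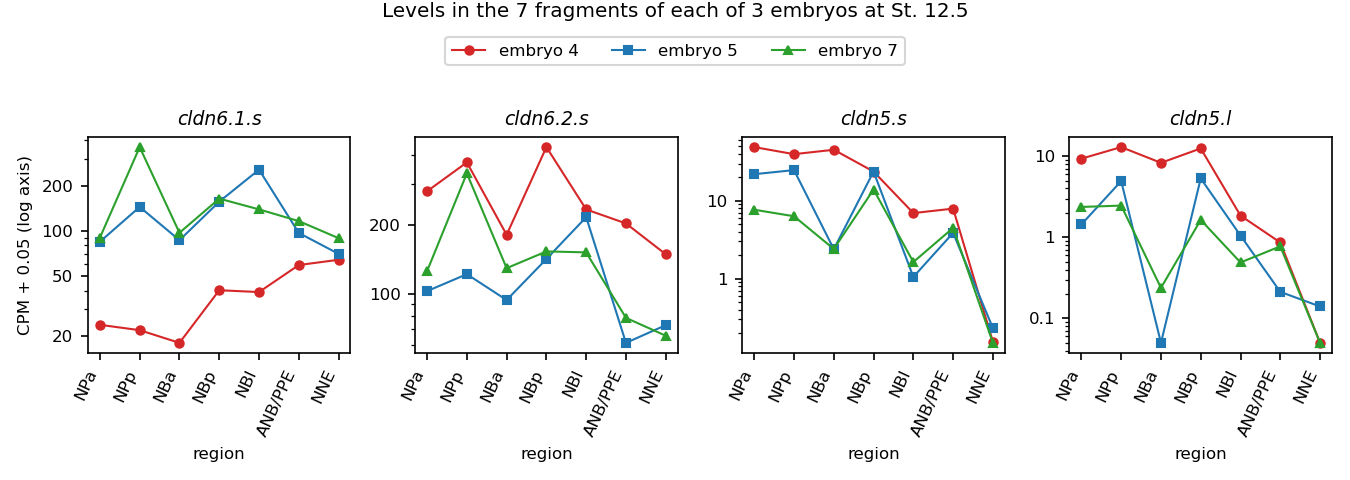
CPM of cldn6.1.s, cldn6.2.s, cldn5.s, and cldn5.l in the 7 regions of St. 12.5, 1 line per embryo (4, 5, and 7). Embryo 4 is below the others for cldn6.1.s and above them for cldn6.2.s in 7 of 7 regions.

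Other genes of the apical junction were read from the same fits by lists of their names. The PAR, Crumbs, and aPKC polarity complexes, which place the junction along the side of the cell, had 7 of 16 tested loci higher in NNE than in plate at St. 12.5 and 5 lower, and 8 higher and 6 lower at St. 14, beside the backgrounds of 39.8% and 45% given above. crb3.l, a Crumbs copy of the apical membrane, was among the higher ones, at 4.68 ± 0.35 (edgeR FDR 3.13e-09) and 5.34 ± 0.53 (edgeR FDR 1.17e-08), as was pard6b.s, at 3.67 ± 0.44 (edgeR FDR 1.1e-06) and 3.28 ± 0.52 (edgeR FDR 8.77e-06). The L copy pard6b.l was not called at either stage, at 0.18 ± 0.26 (edgeR FDR 0.623) and -0.15 ± 0.41 (edgeR FDR 0.807). mpdz.l, a multi-PDZ scaffold, was lower, at -1.46 ± 0.45 (edgeR FDR 0.0125) and -2.62 ± 0.34 (edgeR FDR 4.88e-07). At St. 17, where 12.6% of all loci were called, 4 of the 16 were lower in NC than in Pc and 0 higher, among them mpp5.l, the Pals1 partner of Crumbs (-1.499 ± 0.33, edgeR FDR 0.00179), and its S copy (-1.33 ± 0.43, edgeR FDR 0.0323). Other junction proteins had 7 of 11 tested loci higher and 0 lower in NNE at St. 12.5, beside 23.3% and 16.4% of all loci. amotl1.l, an angiomotin, led them (4.34 ± 0.45, edgeR FDR 1.45e-07), while its S copy was not called (0.008 ± 0.33, edgeR FDR 0.99). At St. 14, 4 of 12 were higher and 2 lower, beside 23.8% and 21.2% of all loci. There cxadr.l, a junctional adhesion receptor, was lower (-1.36 ± 0.28, edgeR FDR 0.000172), while its S copy was higher (0.94 ± 0.34, edgeR FDR 0.0256). At St. 12.5 both copies were higher in NNE, cxadr.l at 0.99 ± 0.38 (edgeR FDR 0.0453) and cxadr.s at 1.13 ± 0.26 (edgeR FDR 0.00134). In NC against Pc, 2 of these 12 were higher and 0 lower, beside 4.39% and 8.26% of all loci. The higher ones were cldnd1.l at 0.70 ± 0.22 (edgeR FDR 0.0268) and ildr2.s at 5.61 ± 1.74 (edgeR FDR 0.0281). ildr2.s averaged 2.32 CPM in NC and 0.0381 CPM in Pc, so its difference rests on very few Pc counts. Epithelial transcription factors of the grhl, ovol, and tp63 families, regulators of epidermal fate, had all 8 of their loci higher in NNE at both stages. Over all loci, 23.3% and 23.8% were. At St. 12.5 tp63.s was at 12.00 ± 0.76 (edgeR FDR 6.22e-10) and grhl3.l at 6.99 ± 0.64 (edgeR FDR 3.33e-08). The grhl3 and tp63 loci are also in the epidermis marker list above, so their values are not a separate result. Between NC and Pc the edgeR FDR of the 8 loci ran from 0.119 to 0.905.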

How the data were processed

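Poly(A) RNA, selected from the total RNA of single dissected fragments and whole embryos, was sequenced as stranded paired-end libraries. Per the labels and the study's methods, the authors aligned reads with TopHat2 2.0.14 to the X. laevis genome (build 9.1), excluded multiply mapped pairs, and counted the rest per locus with HTSeq; the deposited values are raw counts with no normalization. The 5 HTSeq summary entries (15.7% to 25.5% of the entries' total, median 18.4%) were left out of library sizes. Columns of no sample numbered 0. Groups came from the labels.

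Counts were tested with edgeR 4.0.16 (TMM, glmQLFit, and glmQLFTest; R 4.3.3) on loci that exceeded 10 counts in 2 or more libraries of each fit, at an FDR of 0.05 adjusted over all of them. Libraries of both stages and St. 17, of each stage alone, or of whole embryos were fitted together, so the groups share 1 estimate of the spread. Figures used Python 3.11.15 with matplotlib 3.10.9 and numpy 2.4.6. A fold against a group with 0 counts is a lower bound from a floor of 3 counts over that group, on TMM-scaled library sizes, and a ratio given for 1 to 3 counts has an exact (Clopper-Pearson) interval of 95% that covers counting error only. The scripts were tested on simulated data. Members and gene lists were chosen with earlier results of these data known. In each comparison the text names the 5 largest called differences in each direction and the smallest p. The other copy of a named homeolog pair is given in some comparisons and left out in others. Values per library, as a range, or as a mean are given for most of the 20 members whose mean reached 20 CPM in some region and stage. They are also given for a few others where a result turns on them. For cldn12.l only differences are given. The loci of 1 gene among the 29 are in the counts but are not reported here.

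The tests were repeated with limma-voom (limma 3.58.1), with DESeq2 1.42.0, with its type of (RLE) size factors, with no count minimum, over 50 counts, only the libraries whose titles carry the B108 prefix, only the regions compared, leaving out each library in turn (with the trended dispersion of the full fit kept), and the embryo as a replicate block. One further alternative, leaving out libraries with over 100 CPM of paraxial mesoderm markers, was chosen after the data had been seen. Embryo numbers in the labels mark fragments of 1 animal and so pair libraries: residuals of same-embryo fragments correlated at a median r of 0.24 in 63 pairs at St. 12.5 (lowest -0.09, highest 0.62) and 0.14 in 51 pairs at St. 14, against -0.11 and -0.03 between embryos. In some St. 14 groups a pair of libraries came from 1 embryo, so their p-values count fragments and not only animals.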

Additional observations from a re-analysis of the deposited data

Results flagged for a closer look

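Among the groups of 4 to 10 libraries, 10 of 133 group and locus combinations had a highest or lowest library set apart from the others. A rate of 1 in 20 would give 6.65, but this rate was not checked for these levels, some of which were 0. The 10 are therefore given as a description. Of these, 3 were ANF/PPE replicate 1 at St. 14: jam3.s at 114 CPM (next 38.5), tjp1.s at 36.2 CPM (next 21.5), and ocln.l, lowest at 39.7 CPM (next 92.4). ANF/PPE replicate 2 stood apart for cldn5.s at 11.0 CPM (next 3.12) and cldn1.l at 1.18 CPM. At St. 12.5, NBa replicate 1 was high for cldn5.s at 45.3 CPM (next 2.35), and NBa replicate 2 the only one of its group with a cldn1.l count, at 0.0807 CPM. NPp replicate 4 of St. 14 was at 7.22 CPM for marveld2.s (next 0.691), NBa replicate 4 of St. 14 at 17.8 CPM for marveld3.1 (next 13.7), and NC replicate 3 at 94.3 CPM for cldn6.2.l (next 53.2). The NNE minus plate difference changed between stages for cldn1.s, by -5.79 on the log2 scale, and for cldn4.l, by -1.28, in a direct test of the interaction.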

How the results depend on the processing

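Over 22 comparisons 216 calls were made. No called value changed sign under any alternative run, 74 calls were lost without at least 1 library, and 4 more (cldn3.l in ANB/PPE against NNE, cldn16.s in NNE against plate and against border at St. 14, and marveld1.l in whole embryos) were not tested in every such fit. The counts of called loci moved by over 1.5 times in these settings. Border against plate at St. 12.5 (3) fell to 0 without the libraries holding paraxial mesoderm markers. NPa against NPp at St. 12.5 (2) gave 1 with limma-voom, with no count minimum, with the higher minimum, and without the mesoderm libraries, and 0 with only B108 libraries or only the regions compared. NPa against NPp at St. 14 (0) gave 3 with DESeq2, 2 with limma-voom or only the regions compared, and 1 with RLE size factors or the higher minimum. ANF/PPE against NNEa (6) gave 10 with limma-voom, and NNEa against NNEp (1) gave 2 with limma-voom or only the regions compared. With only B108 libraries NC against Pc (9) gave 5 and NC against the St. 14 border (11) gave 3. Without single libraries the counts ran from 4 to 6 for ANB/PPE against NNE, 0 to 2 and 0 to 1 for NPa against NPp at St. 12.5 and St. 14, 1 to 8 for ANF/PPE against NNEa, 1 to 3 for NNEa against NNEp, 1 to 7 for NC against Pc, 3 to 6 for NNE between stages, 1 to 3 for the interaction, 6 to 11 for Pc against ANF/PPE, and 1 to 4 and 0 to 4 for ectoderm against whole embryos at St. 12.5 and St. 14. The cause of these changes was not tested. The replicate block (embryo) lost 7 of 105 calls and gained 11 in 298 tests of the members, all given beside their results, and changed no other call.

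The share of higher calls over all loci moved by over 10 points in a few settings: with only B108 libraries from 58.6% to 47.9% for NNE against plate and from 61.3% to 48.6% for NNE against border at St. 12.5 and from 50.1% to 60.3% for NPa against NPp at St. 14; with limma-voom to 36.1% for the latter, from 54.4% to 42.2% for border against plate at St. 14, and from 71.9% to 46.8% for NNEa against NNEp (48.9% with only the regions compared); from 55.95% to 67.4% without a minimum for Pc against ANF/PPE; and from 32.3% to 43.4% with the higher minimum for ectoderm against whole embryos at St. 14. A locus with a few counts per library, such as cldn16.s, marveld1.l, or jam3.l, limits what these depths can show.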

Other observations

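The name rule misses loci that carry only a model number, and a list of locus annotations among the study's supplements names 2 of these as cldn7 and 1 as marveld3. They were looked up after the values of the others had been seen, and they are not counted among the 29. xelaev18019668m.g, annotated cldn7, was at 538 to 788 CPM in NNE and 88.8 to 172 CPM in plate at St. 12.5, a log2 difference of 2.53 ± 0.23 (edgeR FDR 2.23e-08), and at 335 to 377 and 23.3 to 112 CPM at St. 14 (2.69 ± 0.32, edgeR FDR 1.53e-07). The other locus annotated cldn7, xelaev18001082m.g, was at 98.04 to 144 and 37.95 to 81.4 CPM at St. 12.5 (1.29 ± 0.21, edgeR FDR 4.38e-05). xelaev18031545m.g, annotated marveld3, was at 23.6 to 51.4 CPM in NNE and 1.59 to 6.85 CPM in plate at St. 14 (2.996 ± 0.50, edgeR FDR 1.42e-05), beside 2.79 for marveld3.1. In NC against Pc none of these 3 loci passed the threshold. xelaev18019668m.g was at -1.08 ± 0.39 (edgeR FDR 0.0555), xelaev18001082m.g at -1.11 ± 0.47 (edgeR FDR 0.106), and xelaev18031545m.g at -1.37 ± 0.57 (edgeR FDR 0.103). In whole embryos xelaev18019668m.g fell from St. 11-11.5 to St. 18-19 (-1.09 ± 0.19, edgeR FDR 0.00027), and its 6 NNE libraries at St. 14 were above the 2 whole-embryo libraries of that stage, at 184 to 189.8 CPM.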
